A study of Mus musculus with 2 samples.

Results

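H60b, Gm4758, 2010005H15Rik, 2610044O15Rik and Skint9 are 5 mouse genes whose coding spans held no DNase I reads in M1 cells. They were chosen by measured values, since each had a mean of 0 or almost 0 in both deposited columns over at least 5 windows, out of 22605 genes listed. They were proposed as genes of unique sequence, and this held only in part. At least 80% of the 32-bp sequences occurred once in the genome in 3 of the 5 genes, H60b, Gm4758 and 2610044O15Rik, while the share was 78.7% in Skint9 and 75.2% in 2010005H15Rik. Trp53, the gene of the p53 tumor suppressor, also had 0 reads in both libraries and is not described further.

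M1 cells come from a murine myeloid leukemia. They multiply as immature progenitors, and interleukin-6 (IL-6) turns them toward macrophages. DHS-seq sequences the short fragments that light DNase I digestion of nuclei releases between neighboring cuts, which come mostly from open chromatin, with a lower background from closed chromatin. There was 1 library of untreated cells and 1 library of cells kept in IL-6 for 4 to 5 days, both from this line at passages 15 to 18, with no other agent or altered allele named. No difference between the libraries therefore has a replicate check, and intervals given below are 95% intervals for counting error only, for these libraries and not for the conditions. Values are reads per 700-bp window over the windows that a coding span, from start to stop codon, touches, and a read of the IL-6 library carries the scaling by 1.03816 found in the deposited table. Where a pair of values is given, that of untreated cells comes first. Non-overlapping coding spans held 8866528 reads in untreated and 8346123 reads in treated cells over 1177058 windows, and the median gene had 7.75 and 8.14 reads per window. Genes of other tissues were not empty, with 10.5 reads per window in untreated cells at Cd3e of T cells, 3.09 at Alb of liver and 7.5 at Ins2 of pancreatic islets. The myeloid genes Mpo, Myb, Csf1r, Ptprc and Cebpa ranged from 7.86 reads per window at Ptprc to 46.5 at Cebpa in the same library, so the ranges of both marker lists overlapped, and Spi1 was not listed.

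H60b, Gm4758, 2010005H15Rik and Skint9 belong to families of similar genes, while no listed gene was found to be a paralog of 2610044O15Rik. H60b encodes a cell-surface ligand of NKG2D, the activating receptor by which natural killer cells and some T cells recognize stressed or transformed cells, and the Raet1 genes beside it encode ligands of the same receptor. Gm4758 and 2010005H15Rik, the latter named Csta2 in RefSeq, are stefin A genes, whose small cytosolic products inhibit cysteine proteases of the cathepsin family. Skint9 is one of the Skint genes, a butyrophilin-like family of mouse membrane proteins of which Skint1 is required for the development of dendritic epidermal T cells. No function is given here for 2610044O15Rik, a predicted coding gene at the far end of chromosome 17.

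The sequences that separate each gene from its closest relative are shown first, because a short read can be placed at one of a pair of copies only where the copies differ. Each is a coding exon, or a part of one, read from NCBIM37 (mm9), printed 5′ to 3′ in the direction of the gene, with capitals in the relative where its base differs from that of the gene above it. Coding exon 3 of H60b (chr10:22005946-22006209, plus strand) and of H60c (chr10:7086569-7086832, plus strand) are 264 bp long, differ at 16 positions and are 93.9% identical.
H60b: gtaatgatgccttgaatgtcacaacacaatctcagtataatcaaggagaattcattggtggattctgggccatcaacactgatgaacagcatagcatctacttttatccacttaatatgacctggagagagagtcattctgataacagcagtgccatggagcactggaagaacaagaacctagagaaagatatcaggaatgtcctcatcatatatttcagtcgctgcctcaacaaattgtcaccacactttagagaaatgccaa
H60c: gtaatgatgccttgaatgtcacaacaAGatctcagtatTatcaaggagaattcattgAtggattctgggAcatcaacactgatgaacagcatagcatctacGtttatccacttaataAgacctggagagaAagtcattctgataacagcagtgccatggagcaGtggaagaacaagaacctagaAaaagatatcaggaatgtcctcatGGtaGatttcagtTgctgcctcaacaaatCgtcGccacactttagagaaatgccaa

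Coding exon 3 of 2010005H15Rik (chr16:36257333-36257455, plus strand) is 123 bp long, and the same exon differs at 7 positions in Gm5483 (chr16:36188000-36188122, plus strand) and at 23 positions in Stfa3 (chr16:36450698-36450820, minus strand). Coding exon 2 of Gm4758 (chr16:36311279-36311380, plus strand) is 102 bp long and differs at 12 positions from that of Gm5416 (chr16:36213604-36213705, plus strand).
2010005H15Rik: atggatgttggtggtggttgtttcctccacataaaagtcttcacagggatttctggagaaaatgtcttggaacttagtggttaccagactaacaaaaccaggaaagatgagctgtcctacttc
Gm5483: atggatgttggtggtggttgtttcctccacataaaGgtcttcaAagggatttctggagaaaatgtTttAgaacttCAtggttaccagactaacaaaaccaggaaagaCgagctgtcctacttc
Stfa3: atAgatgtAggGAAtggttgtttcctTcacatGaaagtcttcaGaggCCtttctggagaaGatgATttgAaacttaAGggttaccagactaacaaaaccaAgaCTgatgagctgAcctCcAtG
Gm4758: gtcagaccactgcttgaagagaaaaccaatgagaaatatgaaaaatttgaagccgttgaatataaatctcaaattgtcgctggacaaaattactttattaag
Gm5416: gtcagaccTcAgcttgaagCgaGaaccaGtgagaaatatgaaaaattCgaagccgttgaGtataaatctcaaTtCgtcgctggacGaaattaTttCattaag

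Coding exon 2 of Skint9 (chr4:112086459-112086740, minus strand) and coding exon 3 of Skint10 (chr4:112419164-112419445, minus strand) are 282 bp long, differ at 27 positions and are 90.4% identical. The first 90 bases of coding exon 3 of 2610044O15Rik (chr17:95160828-95160917, minus strand) have a copy inside the coding span of Ndc80, a kinetochore gene on the same chromosome (chr17:71861760-71861849, plus strand), that differs at 6 positions.
Skint9: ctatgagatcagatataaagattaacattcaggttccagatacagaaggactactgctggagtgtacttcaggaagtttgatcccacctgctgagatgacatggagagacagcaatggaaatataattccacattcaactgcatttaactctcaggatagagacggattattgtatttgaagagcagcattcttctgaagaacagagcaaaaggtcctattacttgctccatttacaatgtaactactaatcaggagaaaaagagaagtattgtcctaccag
Skint10: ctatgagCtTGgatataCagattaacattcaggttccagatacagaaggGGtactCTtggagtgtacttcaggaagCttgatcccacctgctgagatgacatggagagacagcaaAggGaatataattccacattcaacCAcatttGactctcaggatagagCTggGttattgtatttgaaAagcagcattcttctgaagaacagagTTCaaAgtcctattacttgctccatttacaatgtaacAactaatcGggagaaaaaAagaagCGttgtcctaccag
2610044O15Rik: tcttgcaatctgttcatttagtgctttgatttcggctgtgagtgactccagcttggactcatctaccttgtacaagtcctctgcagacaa
copy within Ndc80: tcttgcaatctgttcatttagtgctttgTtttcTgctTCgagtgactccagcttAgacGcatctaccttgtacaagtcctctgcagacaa

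The 5 genes had 0 reads in untreated and 0 reads in treated cells, over 77 windows (53.9 kb) on 4 chromosomes, and all 6 listed transcripts had the same values. These zeros are what chose the genes, so they are a description and carry no test. A value of 0 was taken to allow up to 3 reads, a limit below the upper end of the 95% Poisson interval, which is 0.461 reads per window for H60b and 0.0769 for Skint9 in untreated cells. The limit of 3 reads over all 77 windows is 0.0390 reads per window in untreated and 0.0404 in treated cells. For single genes the upper limit in untreated cells was 0.0625 reads per window for Skint9 with 48 windows, 0.375 for H60b and for Gm4758 with 8 windows each, 0.429 for 2010005H15Rik with 7 windows and 0.5 for 2610044O15Rik with 6 windows. The zero of Skint9 is thus the most closely bounded of the 5, and that of 2610044O15Rik the least.

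The amount of repeated sequence differed between the genes. In H60b, 90.8% of the 5569 32-bp sequences of its windows occurred once in NCBIM37, and every window was at least 62% unique. Gm4758 was similar, with 90.5% unique and no window under 78.3%. The share was 82.2% in 2610044O15Rik, with windows between 76.0% and 87.4%. Skint9 was the most uneven, with windows between 5.43% and 100% unique, and 39 of its 48 windows were at least 50% unique. In 2010005H15Rik the 7 windows lay between 61.9% and 92.4%, and only 49.0% of the 32-bp sequences within its coding exons were unique, against 99.7% for H60b, 97.4% for Skint9, 91.8% for Gm4758 and 90% for 2610044O15Rik. The longest stretch in which every 32-bp sequence occurred once was 1965 bp in Skint9, 1748 bp in H60b, 763 bp in Gm4758 and 334 bp in both 2010005H15Rik and 2610044O15Rik. No window held unknown bases, and the GC content of the windows ranged from 37.7% in Skint9 to 43.2% in H60b.

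Long copies at 90% identity or more were found for 3 of the genes. The windows of 2610044O15Rik aligned at 93.3% over 1840 bp and at 93.0% over 1441 bp to stretches inside the coding span of Ndc80. Those of 2010005H15Rik aligned at 90.6% over 1559 bp and at 90.5% over 1256 bp to Gm5483. Skint9 had its longest such match, 93.2% over 2876 bp, on chromosome 15 outside any listed coding span. For Gm4758 and H60b the longest match that the search returned was 101 bp and 96 bp. The search did not return the 264-bp exon of H60c that is 93.9% identical to H60b, so these lengths do not bound the copies.

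Of 16770 genes with at least 5 windows, 395 (2.36%) had at most 3 reads in both libraries, and 232 of them had none. Most of these are repeated sequence, since the median share of unique 32-bp sequences was 2.1% in the 395 genes against 94.05% in all 16770, and 358 of the 395 were under 20% unique. Among the 15926 genes that were at least 50% unique, 16 (0.1%) had at most 3 reads in both libraries, and these hold the 5 genes described here, 6 genes of the Y chromosome, Trp53, Skint3, Apol10a, Trim12a and Prpmp5. Among the 14884 genes that were at least 80% unique there were 8 (0.0537%), namely H60b, Gm4758, 2610044O15Rik, Trp53, Skint3 and the Y genes Eif2s3y, Ddx3y and Uty. The rule that chose the members used these same reads, so nothing is read from the members' share of these counts. The share of nearly empty genes was lower at every step of unique sequence, from 89.8% of genes under 5% unique to 0.0142% of genes at 95 to 100%.

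**Figure D1:**
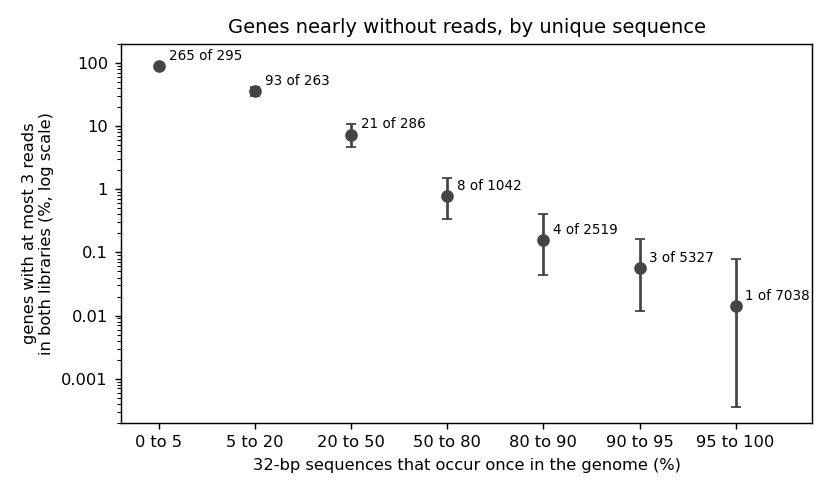
Share of genes of at least 5 windows that had at most 3 reads in both libraries (vertical axis, percent on a log scale) in 7 classes of unique sequence (horizontal axis); points are shares, bars are 95% Clopper-Pearson intervals, and the counts stand beside the points. The share goes from 265 of 295 genes under 5% unique to 1 of 7038 genes at 95 to 100%.

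Genes of similar uniqueness showed what such sequence usually carried. Between 90 and 95% unique, the class of H60b and Gm4758, the median of 5327 genes was 8.79 reads per window in untreated and 8.39 in treated cells, and the 5th percentile was 2.80 and 3.25. For 80 to 90%, the class of 2610044O15Rik, the median was 6.16 and 6.34 and the 5th percentile was 1.69 and 2.18. For 50 to 80%, the class of Skint9 and 2010005H15Rik, the median was 3.6 and 4.33 and the 5th percentile was 0.892 and 1.31. The 5 genes were chosen at 0, so their place below these values follows from the choice.

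**Figure D2:**
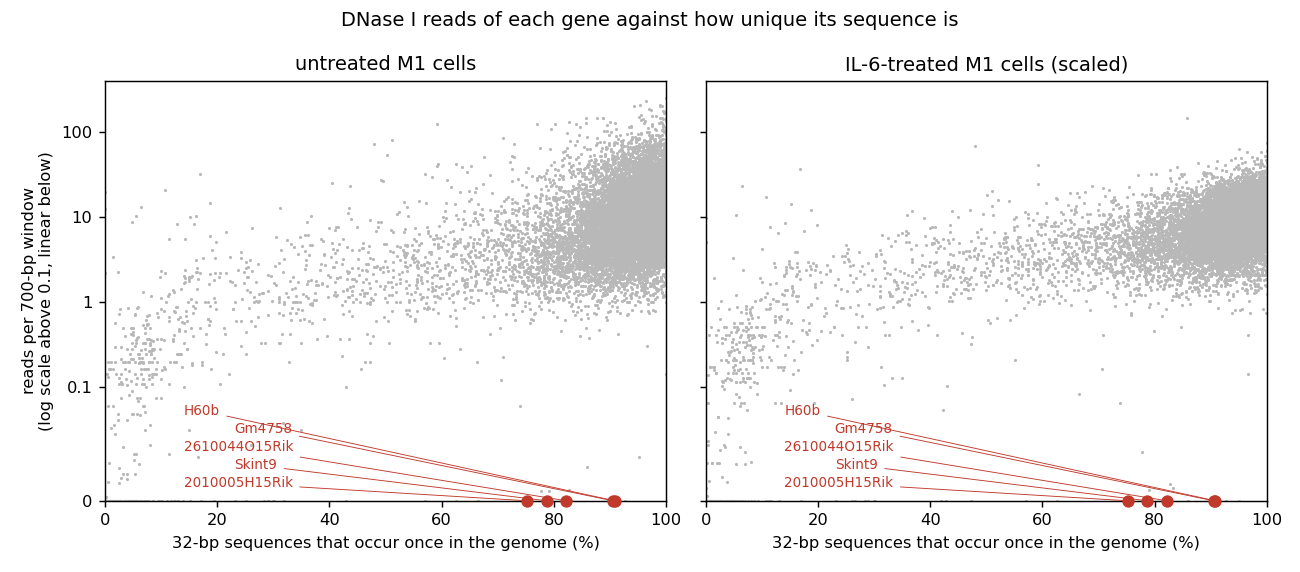
Reads per 700-bp window (vertical axis, log scale above 0.1 and linear below) against the percent of 32-bp sequences that occur once in the genome (horizontal axis) for 16770 genes of at least 5 windows, in untreated (left) and IL-6-treated cells (right, scaled); each gray point is a gene and the 5 red points are the named genes. The red points lie at 0 between 75.2% and 90.8% unique, below the bulk of genes at the same uniqueness.

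Of the 10 genes just outside the rule, at least 50% unique and with the fewest reads per window, 4 were Skint genes and the others were genes of chromosome X. Skint4 had 1 read in untreated and 5 reads in treated cells over 121 windows, or 0.00826 and 0.0429 reads per window. Skint6 followed with 0.121 and 0.166 reads per window, then Kdm6a, an X-linked histone demethylase gene, with 0.307 and 0.144, and Skint5 with 0.231 and 0.415. Just inside, all 5 genes were at 0.

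The coding span of H60b (chr10:22003294-22008555, plus strand) has 5 coding exons, and its annotated gene extends from 21878392 to 22008655, so that Raet1c lies within the gene but outside the coding span. The listed neighbors within 200 kb were not empty. E030030I06Rik, 135 kb to the lower side, had 26 reads in untreated and 25 reads in treated cells over 7 windows, or 3.71 (2.43 to 5.44) and 3.71 (2.40 to 5.47) reads per window. Raet1d, 74 kb to the higher side and 18.7% unique, had 32 and 14 reads over 15 windows. Raet1c, 101 kb to the lower side and 21.1% unique, had 3 and 8 reads over 12 windows. H60b had the highest share of unique sequence of the listed genes in this stretch. It was chosen at 0 reads, so its having the fewest reads follows from the choice.

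Its paralog H60c, elsewhere on chromosome 10 and 95.2% unique, had 35 reads in untreated and 36 reads in treated cells over 12 windows, which is 2.92 (2.03 to 4.06) and 3.11 (2.18 to 4.31) reads per window. The coding sequence of H60b matched that of H60c at 89.3% identity over 58.1% of its length, and coding exon 3, printed above, at 93.9%. The other genes of the family that were looked for, H60a, Raet1a, Raet1b, Raet1e and Ulbp1, were not listed in the table.

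Gm4758 (chr16:36308131-36312739) and 2010005H15Rik (chr16:36253132-36257458), both on the plus strand with 3 coding exons each, lie in the stefin A cluster of chromosome 16. Between them lies Stfa1, another stefin A gene, which had 3 reads in untreated and 1 read in treated cells over 13 windows. These are 3 consecutive genes of the table, spanning 59.6 kb, with 3 and 1 reads over 28 windows in all. Gm4758 and 2010005H15Rik were chosen at 0 reads, so this low total follows in part from the choice. The genes on both sides held more reads. Gm5416, the next gene to the lower side, had 22 and 38 reads over 11 windows. Gm1975, which starts 9.07 kb above Gm4758 and is 23.1% unique, had 19 and 29 reads over 19 windows. No listed coding span lies in the rest of the 103.9 kb between Gm5416 and Gm1975, so where within it reads stop and start again is not analyzed here.

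Genes of similar unique share within this cluster are set side by side here. Of these, 2010005H15Rik and Gm4758 were chosen at 0 reads, so their side of each comparison follows from the choice. Gm5483, the closest relative of 2010005H15Rik with 96.9% identical coding sequence, has the same number of windows, 7, and nearly the same unique share, 75.7% against 75.2%. It held 16 reads in untreated and 40 reads in treated cells, where 2010005H15Rik held 0 and 0. The mean of Gm5483 was 2.29 (1.31 to 3.71) and 5.93 (4.24 to 8.08) reads per window. Stfa1 and BC100530 make a second such pair, at 42.2% and 43.1% unique. Against the 3 and 1 reads of Stfa1 over 13 windows, BC100530 had 17 and 34 reads over 12 windows. For Gm4758 the closest coding sequence was that of Gm5416, at 82.5% identity, which was less unique than Gm4758 (79.1% against 90.5%) and held reads. Stfa3, which is 89.6% unique and has 8 windows as Gm4758 does, had 33 and 42 reads.

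Apart from 2010005H15Rik, Stfa1 and Gm4758, the stefin A genes of chromosome 16 formed a band of low signal. The 7 paralogs other than Stfa1 held 209 and 323 reads over 84 windows, or 2.49 (2.16 to 2.85) and 3.99 (3.57 to 4.45) reads per window. Single genes ranged from 1.42 at BC100530 to 4.31 at Csta in untreated cells. The flanking genes were higher, with 12.1 and 9.20 reads per window at Ccdc58 on the lower side and 4.91 and 7.45 at Casr, the calcium-sensing receptor gene, on the higher side. Cstb, which encodes the related inhibitor stefin B on chromosome 10, was far above all of them with 143 and 50 reads over 3 windows, or 47.7 and 17.3 reads per window.

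**Figure D3:**
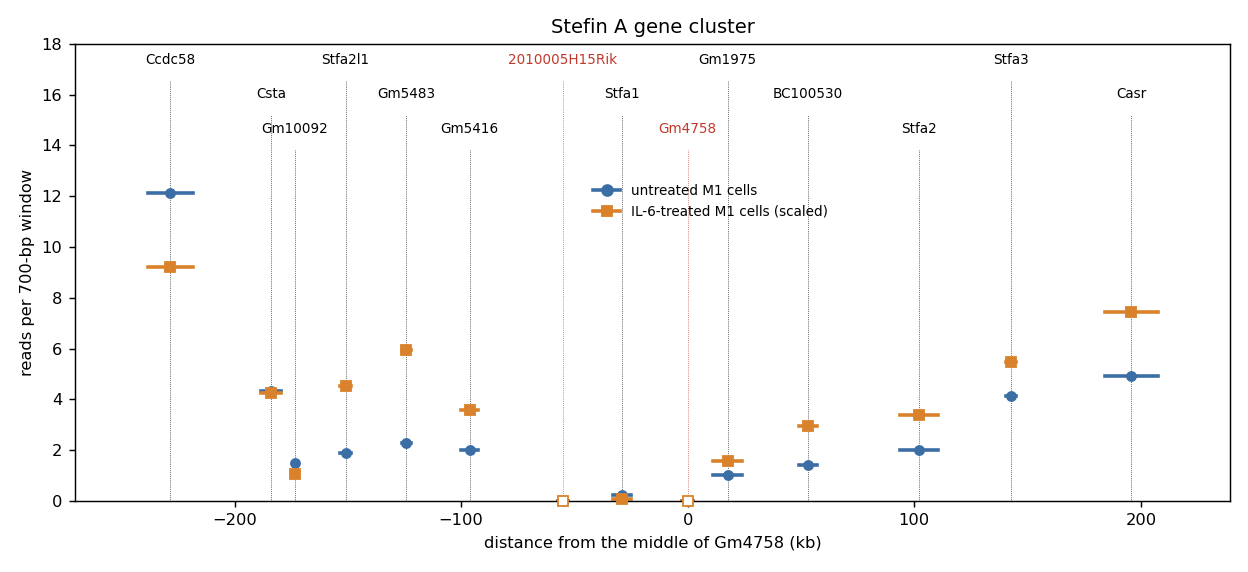
Reads per 700-bp window (vertical axis) of genes in and beside the stefin A cluster by distance from the middle of Gm4758 (horizontal axis, kb); horizontal lines span the coding spans, filled circles are untreated cells, filled squares IL-6-treated cells (scaled), and open symbols are 0. 2010005H15Rik and Gm4758, in red, and Stfa1 between them lie at 0 to 0.231, and all other genes shown lie at 1 or more.

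Skint9 (chr4:112058914-112091777, minus strand) has 6 coding exons and is the longest of the 5 genes. Its neighbor to the lower side, Skint3, 88.1 kb away, was nearly empty as well, with 0 reads in untreated and 1 read in treated cells over 90 windows at 83.2% unique. Next to Skint3 lies Skint4, 77.7% unique, whose 1 and 5 reads fell in 1 and 5 separate windows. These 3 consecutive genes of the table span 337.5 kb and held 1 and 6 reads over 259 windows, or 0.00386 and 0.0240 reads per window. Skint9 was chosen at 0 reads, and Skint3 and Skint4 were joined to it for their few reads. The pooled values are therefore a description and are given without intervals. Sequence between the coding spans was not measured. The genes on both sides held reads. Skint1, on the lower side and 92.3% unique, had 52 and 57 reads over 28 windows, and Skint2, 197 kb above Skint9 and 74.8% unique, had 53 and 79 reads over 52 windows.

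Skint3 and Skint10 differ little in length and uniqueness, and differ widely in reads. Skint10, the closest relative of Skint9 with 85.7% identical coding sequence, had 108 and 171 reads over 92 windows at 82.4% unique, which is 1.17 (0.963 to 1.42) and 1.93 (1.65 to 2.24) reads per window. Skint9, at 78.7%, stayed under 0.0625 and 0.0649. Skint7, at 76.7%, had 12 and 19 reads over 16 windows, fewer windows than the 48 of Skint9. Among the Skint genes with reads, Skint1, Skint2, Skint7, Skint8 and Skint10 together had 1.11 (0.978 to 1.26) reads per window in untreated cells and 1.73 (1.56 to 1.92) in IL-6-treated cells. The very long Skint5 and Skint6, with Skint11, had 0.186 (0.165 to 0.209) and 0.310 (0.282 to 0.340) over 1510 windows. This was higher than in Skint4, Skint3 and Skint9 and lower than in the first group. This grouping was made after the values were seen.

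**Figure D4:**
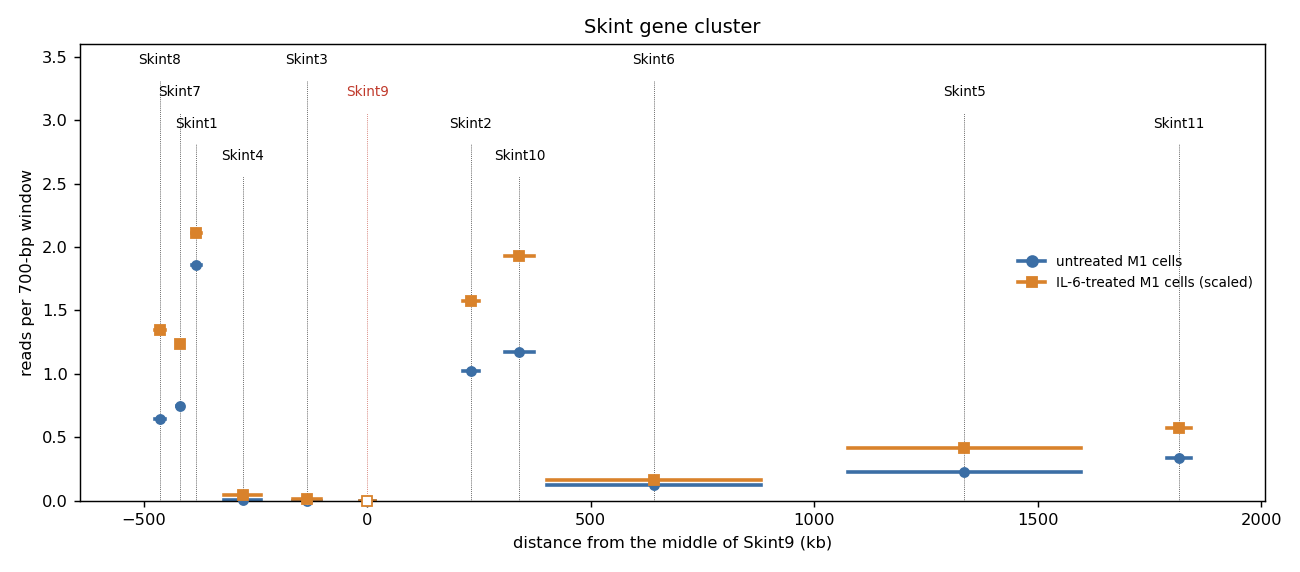
Reads per 700-bp window (vertical axis) of the 11 Skint genes by distance from the middle of Skint9 (horizontal axis, kb); horizontal lines span the coding spans, circles are untreated cells, squares IL-6-treated cells (scaled), and open symbols are 0. Skint4, Skint3 and Skint9 lie at 0 to 0.0429, between Skint1 at 1.86 and 2.11 and Skint2 at 1.02 and 1.58.

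2610044O15Rik (chr17:95160590-95164201, minus strand) has 3 coding exons and is the last listed gene of chromosome 17, 108.5 kb from the end of its reference sequence. Mettl4, which encodes a methyltransferase and lies 13.2 kb to the lower side, was its only listed neighbor within 200 kb. It held 235 reads in untreated and 163 reads in treated cells over 30 windows, or 7.83 (6.86 to 8.90) and 5.64 (4.81 to 6.58) reads per window. The untreated value was close to the median gene, at 7.75, and the treated value was below it, at 8.14. The reads of Mettl4 were unevenly spread, with an SD between windows of 15.2 and 10.6. Ndc80, which holds the similar stretches, had 223 and 232 reads over 43 windows at 82.9% unique, nearly the 82.2% of 2610044O15Rik, and 5.19 and 5.60 reads per window. Since 2610044O15Rik was chosen at 0 reads, its having fewer than Mettl4 and Ndc80 follows from the choice. The coding sequence of 2610044O15Rik had no match over more than 20.5% of its length in another listed coding sequence, and no paralog by name was in the table. In RefSeq (GRCm38) the name is a synonym of a gene on chromosome 8, so the gene model of chromosome 17 is uncertain.

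**Figure D5:**
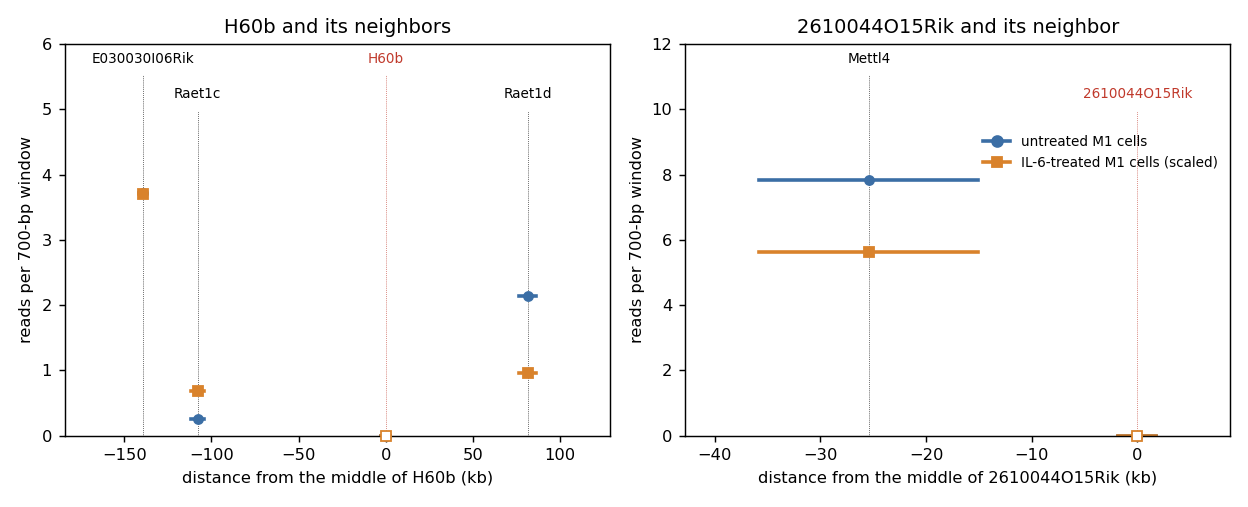
Reads per 700-bp window (vertical axes) by distance in kb from the middle of H60b (left) and of 2610044O15Rik (right) for these genes, in red, and their listed neighbors within 200 kb; horizontal lines span the coding spans, circles are untreated cells, squares IL-6-treated cells (scaled), and open symbols are 0. Both named genes lie at 0, E030030I06Rik lies at 3.71 in both libraries, and Mettl4 lies at 7.83 and 5.64.

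No ratio of IL-6-treated to untreated cells can be given for the 5 genes, since both libraries were at 0. Around them, the 19 neighbors held 1501 and 1519 reads over 429 windows, a ratio of 1.05 (0.978 to 1.13). The pool weights genes by their reads, and single neighbors differed from it. The median log2 ratio of the 17 neighbors with more than 3 reads in a library was 0.6, with 4 at least 2-fold higher and 1 at least 2-fold lower. Neighbors of Gm4758 had a pooled ratio of 1.54 (1.36 to 1.76) and those of Skint9 one of 1.57 (1.09 to 2.26), against 0.72 (0.586 to 0.883) at Mettl4 beside 2610044O15Rik. Neighbors and paralogs share stefin, Raet1 and Skint genes and make 29 genes in all. The 22 paralogs held 954 and 1259 reads over 2082 windows, a ratio of 1.37 (1.26 to 1.49). By family, the ratio was 1.62 (1.45 to 1.81) in the Skint genes and 1.59 (1.33 to 1.90) in the stefin A paralogs of chromosome 16, while the NKG2D ligand genes were at 0.860 (0.597 to 1.24). With Cstb of chromosome 10, which was lower, the whole stefin family was at 1.09 (0.943 to 1.27). Of the 20 paralogs with more than 3 reads in a library, 17 were higher after IL-6, 6 of them at least 2-fold with 0.5 reads added to each library, and 2 were at least 2-fold lower. Over all 21430 genes with more than 3 reads in a library, 54.1% were higher, 4.2% at least 2-fold higher and 12.2% at least 2-fold lower. The share that was higher was 74.7% of the 6699 genes with a summed mean of 1 to 12 reads per window, with a median log2 ratio of 0.36, against 0.73 for the 20 paralogs. Of these 6699 genes, 637 were at least 2-fold higher and 168 at least 2-fold lower. How far the low signal of the paralogs sets their ratios was not tested.

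Single ratios showed which genes carried this. Among paralogs with more than 3 reads in both libraries, the largest ratios were at Gm5483, 2.60 (1.42 to 4.96), Stfa2l1, 2.42 (1.29 to 4.77), and BC100530, 2.08 (1.13 to 3.96), and Skint8, 2.08 (1.22 to 3.64), each with 44 reads or fewer in either library. Raet1c and Skint4 were also counted as at least 2-fold higher, from 3 reads or fewer in untreated cells. Skint5, with 172 and 298 reads, had a ratio of 1.80 (1.49 to 2.18), and Skint10 one of 1.64 (1.28 to 2.11). Those at least 2-fold lower were Cstb, 0.363 (0.258 to 0.504), and Raet1d, 0.454 (0.224 to 0.876). Intervals of H60c, 1.07 (0.652 to 1.75), and Csta, 0.983 (0.662 to 1.46), included 1.

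A list of related genes, holding partners, targets, other inhibitors and relatives of these families and Trim28, held reads in both libraries. Of 13 genes looked for, 12 were listed, of which none was at least 2-fold higher after IL-6 and 3 were at least 2-fold lower, beside 4.2% and 12.2% of all genes. Klrk1, which encodes the receptor NKG2D, had 26 and 35 reads over 15 windows, and Hcst, which encodes its signaling adaptor, had 104 and 27.8 reads per window (ratio 0.266, 0.213 to 0.330). The cathepsin genes Ctsb and Ctsl, targets of stefins, had ratios of 1.23 (0.992 to 1.52) and 1.16 (0.750 to 1.81), while Ctsh and Ctss were lower at 0.626 (0.559 to 0.701) and 0.597 (0.534 to 0.667). The secreted cysteine protease inhibitor gene Cst3 had 48.7 and 15.9 reads per window. Trim28, a corepressor gene for which no tie to these families is given here, had 39.7 and 15.5. The butyrophilin genes Btnl2, Btn1a1 and Btn2a2 had 6.84, 6.30 and 10.9 reads per window in untreated cells, above all 11 Skint genes, and Btnl1 was not listed.

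Sequence that is missing from these cells and sequence that differs from the reference genome can each give 0 reads. So can sequence whose reads were not placed, and sequence that is present with very low signal, mostly over few windows. The table cannot tell these apart. How reads that match several places were treated is not given in the sources used here, and the part of repeated sequence in the zeros of the 5 genes was not tested.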

How the data were processed

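DNase I hypersensitivity was measured in M1 cells, with 1 library before and 1 library after IL-6. The authors removed adaptors and low-quality bases, aligned with BWA to NCBIM37 (mm9) and used Seqmonk for the summary. Their deposited signal is, per transcript, a mean and an SD over the 700-bp windows touched by its coding span. BWA and Seqmonk versions, read length and the treatment of reads with several matches are not given in the sources used here. No value column belonged to other samples (0 columns).

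Each mean was multiplied by its number of windows and divided by what 1 read is worth, 1.0 in untreated and 1.03816 in IL-6-treated cells, which gave whole reads within 0.05 in all 55432 rows. This step was tested on simulated data, where 6929 of 6929 rows were recovered. For each of 22605 genes the transcript of most windows was taken. Unique sequence is the percent of 32-bp sequences, on both strands, that occur once in NCBIM37. Copies were searched with blastn 2.17.0, and gene models were those of GENCODE M1. Ratios are scaled as deposited and have Clopper-Pearson intervals, means have exact Poisson intervals, and log2 ratios have 0.5 reads added. With 1 library per condition nothing was tested and p-values are not given. The genes, gene lists and comparisons were chosen with earlier results of these data known. Named genes are the 5 genes, their families, the nearest and strongest neighbors within 200 kb and a list of related genes. Of 5 genes, 4 matched RefSeq by symbol or synonym. Alternatives covered the transcript, the limits on reads and windows, the distance, the scaling and the length of unique sequence. The scripts ran under Python 3.11.15 (scipy 1.17.1, numpy 2.4.6, numba 0.67.0, pandas 2.3.3, matplotlib 3.10.9).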

Additional observations from a re-analysis of the deposited data

How the results depend on the processing

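The 5 genes were at 0 reads with the union of all transcripts, the shortest transcript and the scaled values, but these alternatives could not change the result. All 6 listed transcripts were at 0, and scaling leaves 0 at 0. The 395 genes with at most 3 reads became 232 at 0 reads, 211 with at least 10 windows and 8 at 80% unique or more, and stayed within 1.5-fold with at most 10 reads (560), at least 3 windows (556) and under 5% of the median (425). Signal of neighbors, 3.50 reads per window in untreated and 3.68 in IL-6-treated cells, was 1.78 and 1.97 within 100 kb and 7.37 and 6.96 without genes of the same family, and its median over genes was 2.00 in untreated cells. Signal of paralogs, 0.458 and 0.628, had medians of 1.30 and 1.75. With alternatives chosen after seeing the data it was 1.34 and 2.09 over genes whose coding sequence matches over at least 50%, and 1.08 and 1.36 without Skint5 and Skint6, which hold most windows. The ratios, 1.05 for neighbors and 1.37 for paralogs, ranged over the scalings and 5 added reads from 1.01 to 1.08 and from 1.32 to 1.40. Unique sequence of the 5 genes, 81.1%, was 71.9% for 24-bp and 90.6% for 50-bp sequences and 91.8% in coding exons. Of the 34 alternatives, 17 moved a value and 17 left it about the same. Only the ratios could be reversed, and none of their alternatives did so. The scalings differ little and 5 reads are few beside these pools, so they could hardly reverse the paralog ratio. The neighbor ratio has a counting interval of 0.978 to 1.13, which includes 1.

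An alternative by protein identity was not run, since proteins were not used here. No paired analysis was possible because there was 1 library of each kind, which also left no replicate to omit. The zeros of genes with 6 to 8 windows are bounded least, by up to 0.5 reads per window in untreated cells.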

Other observations

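Kdm6a, an X-linked gene of a histone H3 demethylase, was sparse in another way. It is 96.6% unique over 166 windows and had 51 reads in untreated and 23 reads in IL-6-treated cells. The 47 windows of its shortest listed transcript, on chromosome X from 17823414 to 17855781, had 0 reads in both libraries, and all 51 and 23 reads lay in the other 119 windows. The median gene of chromosome X had 1.87 and 2.17 reads per window. This gene was chosen after its values were seen.

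Of the 16 genes that were at least 50% unique and had at most 3 reads in both libraries, 6 were on the Y chromosome, among them Uty with 2 and 3 reads over 211 windows, Usp9y with 2 and 2 reads over 223 windows and Kdm5d with 0 and 0 reads over 66 windows. Apol10a had 1 and 1 reads over 12 windows, Trim12a 0 and 1 reads over 11 windows and Prpmp5 3 and 1 reads over 5 windows.

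The reads of the longest Skint genes were spread thinly. Skint5 had 172 reads in untreated cells in at least 106 of 746 windows, and Skint6 had 83 reads in at least 64 of 686 windows. Both were about as unique as Skint2 (70.8% and 70.6% against 74.8%), which had 1.02 reads per window against 0.231 and 0.121.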
